A study of Homo sapiens with 6 samples.

Results

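The T-cell receptor gene loci were described from the ATAC-seq peaks of 6 human cell lines labelled as T-ALL, short for T-cell acute lymphoblastic leukaemia, in which immature T cells turn malignant. In ATAC-seq the Tn5 transposase inserts sequencing tags where DNA is accessible, so that a pile of tags, called a peak, marks open chromatin. The lines were TALL-1, MOLT-4, KOPT-K1, HBP-ALL, DND-41 and CCRF-CEM, grown in RPMI-1640 with serum, with no drug treatment or control named and 1 library each. A cell line is 1 leukaemia in long culture, so line and library cannot be told apart, and no value here has a replicate error. Peaks were taken where an interval of a list reached into any of 3 windows of build hg19: TRB at chr7:141990000-142520000, TRG at chr7:38270000-38420000, and TRA together with TRD at chr14:22080000-23030000. The windows held 130 of 116055 intervals of the 6 lists on chromosomes 1 to 22 and X. Joined where they overlapped by at least 1 bp, they made 65 of the 40110 merged regions, 38 in TRB, 11 in TRG and 16 in TRA/TRD.

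T-cell receptors are assembled by V(D)J recombination, in which RAG enzymes cut beside 1 V and 1 J segment, with a D segment between them in TRB and TRD, and join the pieces. Joining in the usual orientation removes the DNA between the chosen segments. TRD lies inside TRA, so that a V to J join of TRA removes TRD from that chromosome. Each locus has an enhancer beyond its constant genes, known as E-beta in TRB, E-gamma in TRG and E-alpha in TRA, and these drive germline transcription, recombination and later expression of the receptor. RefSeq lists 67 V, 2 D and 14 J segments for TRB, 14 V and 5 J for TRG, 54 V and 61 J for TRA, and 3 V, 3 D and 4 J for TRD. V, D, J and constant parts were mapped by position with borders set by hand to the nearest kb from general knowledge of hg19. No annotation or sequence of that build was used, so single V segments are not named and no bases are printed. The segment numbers belong to a later build, and whether hg19 holds all of these segments was not checked.

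The T-cell label was checked against peaks at marker genes. Of 6 windows over T-cell genes (the CD3 cluster, CD7, CD2, CD5, LCK and ZAP70), 5 or 6 held a peak in every line. CD7 had none in CCRF-CEM and HBP-ALL, CD5 none in DND-41 and ZAP70 none in KOPT-K1. Of 4 windows over B-cell genes only CD79B held a peak, in HBP-ALL, and the windows over CSF1R and ALB held none. The longest list was that of CCRF-CEM, with 22367 intervals, and the shortest that of TALL-1, with 16507. At regions with a peak in all 6 lines the median pileup, which counts the tags stacked at a summit, ran from 31 in CCRF-CEM to 44.0 in TALL-1, with 36.0 to 40 in the other lines.

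Most peaks lay in the V parts, which make up most of each window. Of the 65 regions, 56 lay in the V parts, 3 in the stretches beyond the constant genes where the enhancers are known to lie, 3 in the D-J-C part of TRB, 2 in the V2-D-J part of TRD and 1 beside TRBV30, the inverted V segment at the far end of TRB. The TRA J part, about 72.0 kb, held no peak in any of the 6 lists, and neither did TRAC, the TRDC and TRDV3 part, the J-C clusters of TRG or the trypsinogen genes inside TRB. A peak in all 6 lines was found at 3 regions, 4.62% of the 65, against 22.6% of merged regions over the genome. These 3 regions were the enhancer stretches of TRB, TRG and TRA, 1 in each locus. A peak in 1 line only was found at 41 regions, 63.1% of the 65, against 43.2% over the genome. By locus the share was 55.3% in TRB, 72.7% in TRG and 75.0% in TRA/TRD. The 3 windows held 8 intervals of the CCRF-CEM list (0.0358%) and 29 of the TALL-1 list (0.176%), the lowest and highest numbers of any line.

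**Figure D1:**
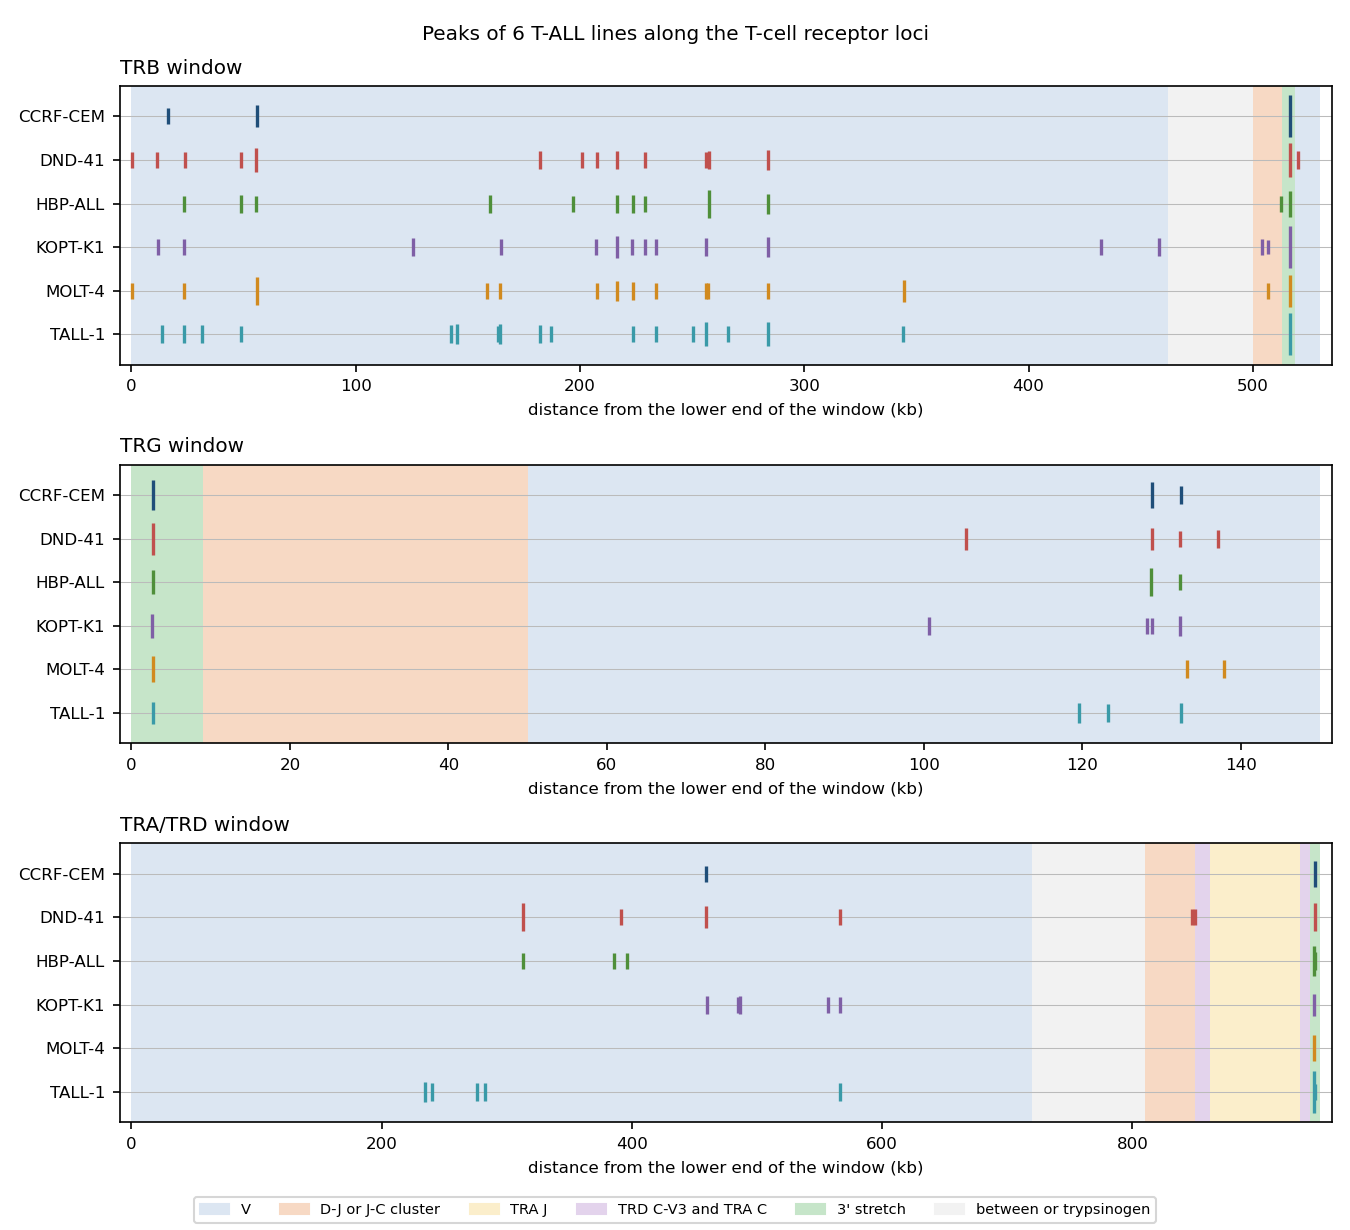
Positions of the 130 intervals in 6 lines along the TRB, TRG and TRA/TRD windows (x axis, kb from the lower end of each window; tick height grows with −log10 p up to 60; shading marks the hand-set parts). Each window has 1 position, in its 3′ stretch, with a tick in all 6 lines, and CCRF-CEM has no tick in TRB for 460 kb between its V side and that position.

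The E-beta stretch of TRB held the highest pileups of the 3 enhancer stretches in 5 of the 6 lines. The region lay at chr7:142506256-142507289 and carried peaks 828 to 1011 bp wide. Summit pileups were 126 in TALL-1, 124 in KOPT-K1, 117 in CCRF-CEM, 112 in DND-41, 110 in MOLT-4 and 81 in HBP-ALL. HBP-ALL was thus the lowest, and the other lines lay close together. To set libraries of different depth side by side, each pileup was divided by its line's median at regions with a peak in all 6 lines. On this log2 scale the values were 1.92 in CCRF-CEM, 1.78 in KOPT-K1, 1.61 in MOLT-4, 1.52 in TALL-1, 1.49 in DND-41 and 1.05 in HBP-ALL. The Poisson 95% interval, which covers counting error only, was 1.64 to 2.18 in CCRF-CEM and 0.72 to 1.37 in HBP-ALL. Among 15 pairs of lines only HBP-ALL against CCRF-CEM and against KOPT-K1 had intervals that did not overlap. Overlapping intervals do not show that lines are equal, and pairs of lines were not tested. In bulk libraries fewer cells or alleles open at a site and less signal per open site cannot be told apart.

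By the authors' fold over the local background the same TRB peak was not high. The fold was 8.78 in CCRF-CEM, 6.79 in KOPT-K1, 6.74 in TALL-1, 5.41 in DND-41, 4.90 in MOLT-4 and 4.27 in HBP-ALL. Against each line's median fold this was −0.11 in CCRF-CEM, −0.28 in KOPT-K1 and TALL-1, −0.64 in DND-41, −0.73 in MOLT-4 and −0.94 in HBP-ALL on the log2 scale, below the median in all 6. The local background recovered at this summit was 12.4 tags in CCRF-CEM and 17.4 to 21.7 in the other lines, where medians at regions with a peak in all lines were 2.40 to 4.45. The direction at E-beta relative to other regions therefore depended on the measure, while HBP-ALL was lowest on either. By −log10 p the peak stood among the strongest 3.38% of the list in KOPT-K1, 3.73% in TALL-1, 4.13% in CCRF-CEM, 7.98% in MOLT-4, 10.1% in DND-41 and 23.2% in HBP-ALL.

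E-alpha, beyond TRAC, had the widest range between lines of the 3 enhancer stretches by relative pileup, and the narrowest by fold. The region at chr14:23024971-23026296 had summit pileups of 134 in TALL-1, 70 in HBP-ALL, 53 in DND-41, 46 in MOLT-4, 36 in CCRF-CEM and 33 in KOPT-K1. TALL-1 stood above all other lines, and KOPT-K1 and CCRF-CEM were lowest. Relative to the line medians the log2 values were 1.61 in TALL-1, 0.84 in HBP-ALL, 0.41 in DND-41, 0.35 in MOLT-4, 0.22 in CCRF-CEM and −0.13 in KOPT-K1. The TALL-1 interval, 1.35 to 1.85, overlapped that of no other line, and HBP-ALL (0.48 to 1.18) lay above KOPT-K1 (−0.66 to 0.36). The range of 1.73, against 1.21 at TRG and 0.86 at TRB, compares with a median range of 1.06 over 9045 regions with recovered pileups in all 6 lines. On the fold scale the lines lay between −0.44 in KOPT-K1 and 0.09 in TALL-1, against −0.57 to 0.32 at TRG and −0.94 to −0.11 at TRB. By fold TALL-1 was again highest at E-alpha, with a smaller lead, and the other 5 lines all lay below 0, HBP-ALL at −0.37. The local background of TALL-1 there was 14.5 tags, against 2.94 to 10.2 in the other lines. In TALL-1 only 1.14% of the list was at least as strong by −log10 p.

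The same TRA stretch held a further summit on its far side. HBP-ALL had a separate interval at chr14:23026020-23026296 with a pileup of 39, and TALL-1 one at chr14:23025974-23026275 with a pileup of 42. In DND-41 1 wide interval with 2 summits, chr14:23025001-23026228, covered most of this ground. The intervals of the other lines ended at 23025987 in CCRF-CEM, 23025795 in MOLT-4 and 23025718 in KOPT-K1, so that only CCRF-CEM reached its near edge. The next region, chr14:23030630-23031159, began 630 bp above the window and had peaks in every line but CCRF-CEM.

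E-gamma, beyond TRGC2, was lowest in TALL-1. The region at chr7:38272272-38272987 had summit pileups of 55 in KOPT-K1 and DND-41, 43 in CCRF-CEM, 42 in HBP-ALL, 35 in MOLT-4 and 29 in TALL-1. The line at the low end had the highest median pileup of the 6 libraries. Relative to the line medians the values were 0.61 in KOPT-K1, nearly equal in CCRF-CEM (0.47) and DND-41 (0.46), 0.11 in HBP-ALL, −0.04 in MOLT-4 and −0.60 in TALL-1. The TALL-1 interval (−1.18 to −0.08) lay below those of KOPT-K1, CCRF-CEM and DND-41, and the remaining 12 of 15 pairs overlapped. The fold scale gave another order, with CCRF-CEM highest at 0.32 and KOPT-K1 lowest at −0.57, where the local background was 9.06 tags against 2.73 to 5.11 elsewhere. TALL-1 thus had the highest relative pileup of the 6 lines at E-alpha and the lowest at E-gamma.

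**Figure D2:**
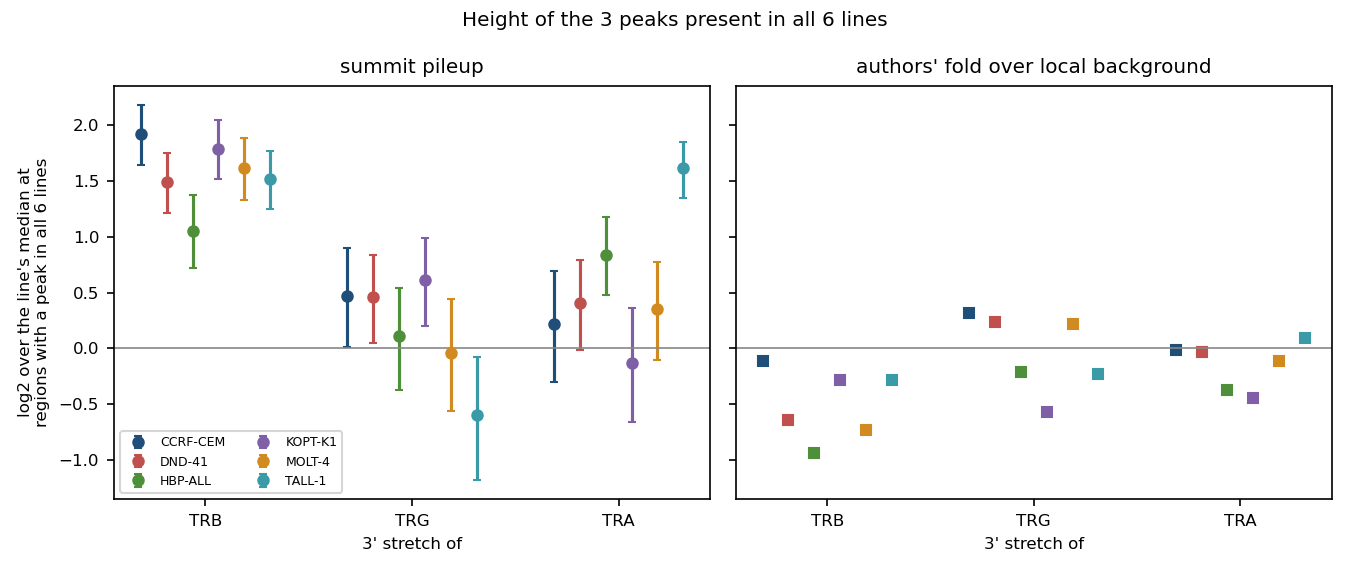
Summit height at the 3 regions with a peak in all 6 lines, as log2 over each line's median at such regions over the genome, for the pileup (left, bars are Poisson 95% intervals) and the authors' fold (right). By pileup all 6 lines lie above 0 at TRB and TALL-1 stands alone at 1.61 in TRA, while by fold all 6 lines lie below 0 at TRB.

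The summits of the 6 lines lay close together at these enhancers. The 6 strongest summits lay within 98 bp at TRB (142506628 to 142506726), within 95 bp at TRG (38272655 to 38272750) and within 140 bp at TRA (23025340 to 23025480). The median over all 9053 regions with a peak in every line was 123.0 bp, and 38.5% of them had no larger spread than TRG, 39.9% than TRB and 56.8% than TRA. This closeness was ordinary for shared regions.

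V parts held 103 intervals in 56 regions, and most of these were weak. V segments each carry a promoter of their own, and in germline configuration many of these promoters are far from the enhancer. Of the 56 V regions 36 had a peak in 1 line only, and 3 had one in 5 lines. Over the genome 17315 of 40110 merged regions (43.2%) had a peak in 1 line only. The median −log10 p of V intervals was 9.46, with a range of 5.18 to 33.9, where the median over the 6 lists was 16.3 and the weakest interval of any list stood at 5. Of the 103 intervals 57 lay below 10 and 46 at 10 or more, where 85987 of 116055 intervals of the 6 lists stood at 10 or more. CCRF-CEM had 5 V regions, HBP-ALL and MOLT-4 15 each, DND-41 21, KOPT-K1 22 and TALL-1 25. TALL-1 thus had the most V regions with the shortest list, and CCRF-CEM the fewest with the longest.

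**Figure D3:**
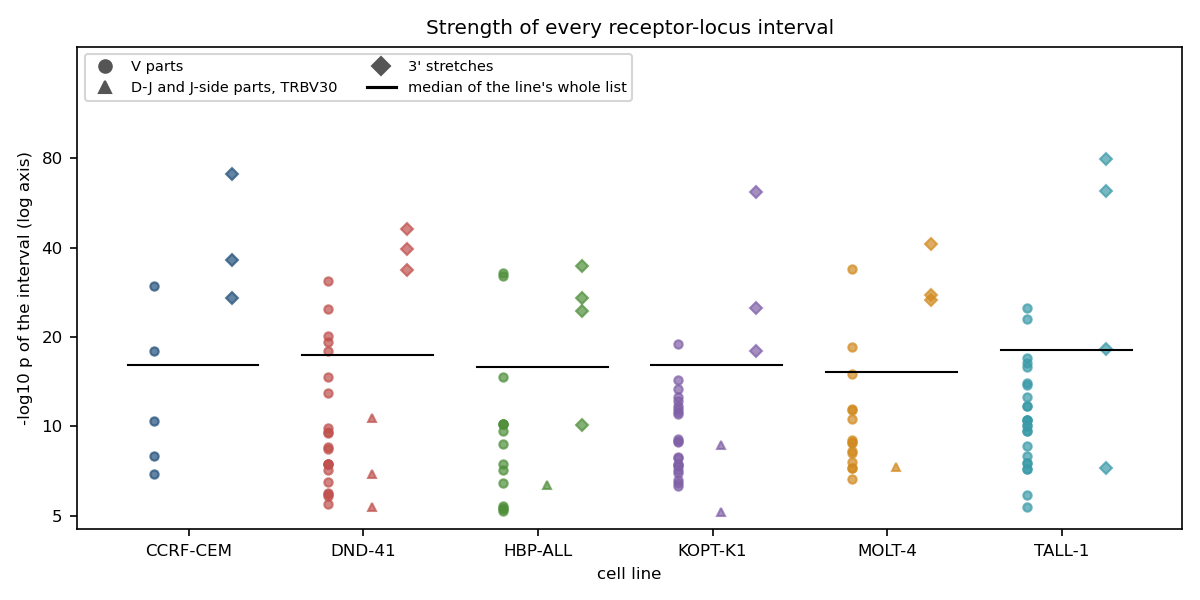
−log10 p (log axis) of every interval in the 3 loci by line, for V parts (circles), D-J parts and TRBV30 (triangles) and 3′ stretches (diamonds), with the median of each line's whole list as a bar. Most circles lie below the bars, and the V median was 9.46 against 16.3 over all lists.

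In the V part of TRB CCRF-CEM had 2 intervals, HBP-ALL 10, DND-41, KOPT-K1 and MOLT-4 13 each, and TALL-1 17. The strongest TRB V region by median rank lay at chr7:142045311-142046211. Its pileups were 50 in MOLT-4, 40 in DND-41, 20 in CCRF-CEM and 8 in HBP-ALL, with no peak in KOPT-K1 and TALL-1. MOLT-4 and DND-41 thus stood well above HBP-ALL, where the −log10 p was 5.18, just over the threshold. The next, chr7:142273451-142273972, had pileups of 36 in TALL-1, 27 in HBP-ALL, 24 in KOPT-K1, 20 in DND-41 and 18 in MOLT-4. It was absent from CCRF-CEM alone, as was chr7:142013270-142013798, where pileups were 9 to 19. At chr7:142245874-142246372 TALL-1 had a pileup of 48, KOPT-K1 29, MOLT-4 23 and DND-41 19. Relative to the line medians the TALL-1 interval there (−0.31 to 0.53) overlapped those of KOPT-K1 (−0.89 to 0.21) and MOLT-4 (−1.30 to −0.06). At chr7:142247013-142247998 HBP-ALL had a pileup of 51 with its summit at 142247761. MOLT-4 (21) and DND-41 (20) had their summits at 142247221 and 142247148, so the heights belong to different positions within 1 merged region.

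CCRF-CEM lacked peaks along most of TRB. Its V intervals lay at chr7:142006149-142006440 and chr7:142045552-142046040, both on the side away from the constant genes, and its next peak was E-beta at 142506256. This 460 kb span held 27 regions with peaks of the other 5 lines. CCRF-CEM had 1139 gaps between peaks of at least that length among 22344, but no other gap held as many regions of other lines. Within it CCRF-CEM lacked 12 consecutive recurrent regions, meaning regions with a peak in at least 2 other lines, from 142154149 to 142496862. CCRF-CEM had 2 such runs of 12 or more over the genome, this one included, among 447 runs of 3 or more, and TALL-1 had 10. The first of the 12, chr7:142154149-142154904, had pileups of 31 in TALL-1, 16 in MOLT-4 and 14 in KOPT-K1. At those 12 regions the other lines had pileups of 8 to 51.0, with a median of 18, and a −log10 p of 5.13 to 32.2, with a median of 8.96. CCRF-CEM had the lowest median pileup of the 6 libraries. The part of its lower pileups in the missing peaks was not tested. With a −log10 p of at least 10 required in every list the run shortened to 4 regions.

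In the other lines the peak-free span from the V part of TRB to the next peak was shorter, and began at 3 places. Its V-side edge lay at 142273881 in HBP-ALL and 142273928 in DND-41, at 142334243 in TALL-1 and 142334585 in MOLT-4, and at 142448270 in KOPT-K1. The distance to the next peak was 229 kb in HBP-ALL, 232 kb in DND-41, 172 kb in TALL-1, 162 kb in MOLT-4 and 45.9 kb in KOPT-K1. That peak was E-beta in DND-41 and TALL-1, and lay in the D-J-C part in HBP-ALL, MOLT-4 and KOPT-K1. Only 3 regions lay between 142273972 and the D-J-C part in any line. One, chr7:142333895-142334585, had pileups of 26 in MOLT-4 and 11 in TALL-1. The others, chr7:142422255-142422472 and chr7:142447870-142448270, were found in KOPT-K1 alone, with pileups of 20 and 17. The edges beyond 142273972 thus rest on single peaks. With a −log10 p of at least 10 the longest TRB span was 232 kb in TALL-1, HBP-ALL and DND-41, 174 kb in KOPT-K1 and 172 kb in MOLT-4. Spans of this length were common: DND-41 had 2884 of at least 232 kb among 17875, and TALL-1 3704 of at least 172 kb among 16484.

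KOPT-K1 also had the most peaks in the D-J-C part of TRB. It had pileups of 22 at chr7:142494184-142494396 and 18 at chr7:142496515-142496862. MOLT-4 shared the second, with 20, and HBP-ALL had 41 at chr7:142502444-142502644, over a local background of 17.4. CCRF-CEM, DND-41 and TALL-1 had none there. Beside TRBV30 DND-41 alone had a peak, chr7:142510170-142510390, with a pileup of 51 over a background of 17.5. All these D-J-C peaks were near the threshold, with −log10 p of 5.13 to 8.67, and that beside TRBV30 stood at 10.7.

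TRG had few peaks between its V part and E-gamma. The peak-free span ran from E-gamma to the first V peak over 97.6 kb in KOPT-K1, 102 kb in DND-41, 117 kb in TALL-1, 125 kb in HBP-ALL, 126 kb in CCRF-CEM and 130 kb in MOLT-4. The first 97.5 kb of it, from 38272988 to 38370458, held no peak of any line and includes both J-C clusters. Gaps of 97.5 kb or more between merged regions numbered 8382 of 40087 over the genome, so this emptiness was not unusual in length. The TRG V regions shared by most lines lay next to each other. At chr7:38398386-38398999 pileups were 52 in HBP-ALL, 49 in CCRF-CEM, 38 in DND-41 and 24 in KOPT-K1. At chr7:38402160-38402665 they were 36 in TALL-1, 35 in KOPT-K1, 27 in CCRF-CEM and 24 in DND-41 and HBP-ALL. MOLT-4 lacked both, and its TRG V peaks lay at chr7:38403095-38403335 and chr7:38407720-38407957, with pileups of 18 and 19. TALL-1 lacked the first and had peaks of its own at chr7:38389520-38389745 and chr7:38393063-38393350. DND-41 alone had a peak at chr7:38375092-38375596, with a pileup of 30. CCRF-CEM, sparse in TRB, missed none of the 3 recurrent TRG regions.

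TRA/TRD, the longest window, held the fewest V peaks per length. MOLT-4 had no peak in it other than E-alpha: its span without a peak ran from 21994641, below the window, to 23025208, and covered 945 kb of the window and 15 regions of the other lines. It had 411 gaps of at least this length of 1031 kb among 19091, and 50 that held at least 15 regions of other lines. CCRF-CEM had 1 TRA V peak, HBP-ALL 3, DND-41 4, and KOPT-K1 and TALL-1 5 each. Only 3 TRA V regions were found in several lines. At chr14:22539193-22539776 pileups were 25 in DND-41, 17 in KOPT-K1 and 9 in CCRF-CEM. At chr14:22645704-22646462 DND-41 had 10, TALL-1 14 and KOPT-K1 16. At chr14:22392598-22393029 DND-41 had 32 and HBP-ALL 10, and the DND-41 peak was the strongest TRA V interval of any line, with a −log10 p of 30.9.

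Most TRA V peaks of TALL-1 and KOPT-K1 were found in 1 line only, as were 75.0% of the regions of this window. Of the 5 TALL-1 peaks 4 lay together from 22314592 to 22362725, where no other line had a peak. The strongest of them, chr14:22314592-22314925, had a pileup of 20 and a −log10 p of 14. In the same way 3 of the 5 KOPT-K1 peaks, at chr14:22564942-22565173, chr14:22566110-22566376 and chr14:22636195-22636651, were found in no other line. TALL-1 and KOPT-K1 shared the V region nearest the J side, chr14:22645704-22646462, with DND-41. From there to E-alpha KOPT-K1 and TALL-1 had no peak for 379 kb, CCRF-CEM none for 486 kb from 22539566 and HBP-ALL none for 549 kb from 22475903. The edges in CCRF-CEM and HBP-ALL were single peaks with a −log10 p of 7.91 and 6.44. With a −log10 p of at least 10, or with equal numbers of the strongest intervals per list, both spans became 945 kb. The stretch of 281 kb from 22646463 to 22927870 held no peak of any line. Stretches at least as long numbered 1682 of 40087 over the genome.

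DND-41 was the only line with peaks in the parts mapped to TRD, namely V2-D-J and the TRDC and TRDV3 part. They lay in the V2-D-J part at chr14:22927871-22928074, with a pileup of 11 and a −log10 p of 5.33, and at chr14:22929639-22929870, with 13 and 6.92. These rank at the weak end of the list, where 98.5% and 91.7% of DND-41 intervals were at least as strong. E-delta, the enhancer of TRD, is known to lie between the last J segment of TRD and TRDC, close to this side of the part border. From 22929871 to 23024970, 95.1 kb with the TRDC and TRDV3 part, all of TRA J and TRAC, no line had a peak. The parts mapped to TRD are named for V2 and V3, while RefSeq lists 3 V segments for TRD. Peaks near a TRD V segment outside these parts would be counted in another part.

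Recurrent regions without a peak in a given line were counted over the 3 loci together. CCRF-CEM lacked 17 of 24 (70.8%, exact binomial 95% interval 48.9% to 87.4%), against 34.0% of such regions over the genome. In TRB alone it lacked 15 of 17. DND-41 lacked 5 of 21 (23.8%, genome 30.5%), HBP-ALL 10 of 23 (43.5%, genome 27.2%) and KOPT-K1 7 of 23 (30.4%, genome 29.9%). MOLT-4 lacked 8 of 21 (38.1%, genome 27.1%) and TALL-1 10 of 22 (45.5%, genome 36.8%). The receptor loci hold more regions with few lines than the genome does. Weighted to the same numbers of other lines with a peak, the genome shares were 51.5% for TALL-1, 46.7% for KOPT-K1, 46.2% for CCRF-CEM, 38.1% for MOLT-4, 41.2% for HBP-ALL and 45.9% for DND-41. Against these, CCRF-CEM alone had an interval that lay above the genome share, and the other 5 intervals contained it. With a −log10 p of at least 10 in every list CCRF-CEM lacked 5 of 11 (45.5%, genome 31.6%), within the 33.3% to 50.0% of the other lines at that threshold. The intervals cover counting error only, and neighbouring regions of 1 locus are not independent.

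**Figure D4:**
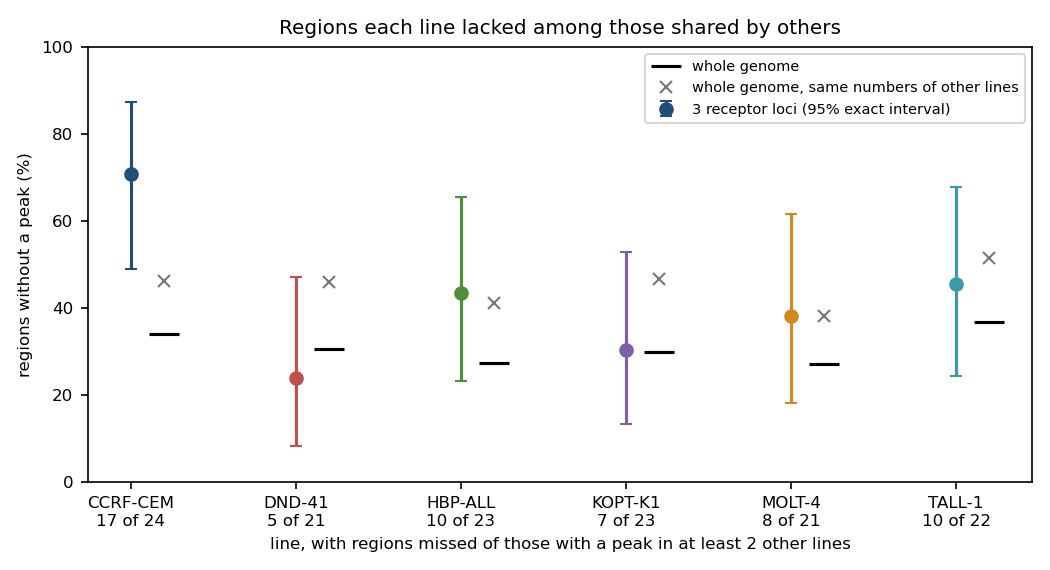
Share of regions with a peak in at least 2 other lines at which a line had none (y axis, %), in the 3 receptor loci (points with exact 95% intervals) and over the genome (dashes; crosses weight the genome to the same numbers of other lines). CCRF-CEM, at 70.8%, is the line whose interval lies above its genome shares of 34.0% and 46.2%.

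A span without peaks is the pattern that V(D)J deletion would leave, but a missing peak is only a position where no signal reached the authors' threshold. Deleted DNA, inaccessible DNA and signal under the threshold cannot be told apart in these lists, and whether DNA was missing was not tested. V segments and trypsinogen genes have near-identical copies, and how reads with several matches were treated is not given in the sources used here.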

How the data were processed

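Peak lists of 6 ATAC-seq libraries, 1 per line, were used as the authors deposited them. Tools named in the submitters' processing notes, without order or settings, are MACS2 2.1.1.2016030, SAMtools, Picard and Bowtie2, with build hg19; a shift of reads for the Tn5 cut is not given in the sources used here. The deposited lists give per summit a score (not used), a fold enrichment over local background and a −log10 of p and of q. Read totals are not known here.

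Lines of a list that share an interval were joined, keeping the strongest summit, and intervals were merged across lines at 1 bp overlap. The authors' fold and −log10 p together gave whole pileups and their backgrounds through MACS2's Poisson formula, within 0.001, for 130 of 130 intervals. A region belongs to the part that holds its midpoint. Lines were compared without p-values, since each has 1 library. Named regions follow a rule: all 3′ stretch and TRD regions, those in all 6 lines, the 3 best per locus by median −log10 p rank, and the ends of missed runs with the peaks around them; others were chosen after their values were seen. The members, parts and alternatives were chosen with earlier results of these data known. Merging, runs and recovery were tested on simulated data, with 100.0% of 5000 regions and all 2000 pileups right. The simulated pileups came from the same formula that recovery inverts, and the simulated regions lay well apart. This checks the code only, and not how crowded peaks merge. Segment numbers and names come from RefSeq (GRCh38.p14), with no coordinates used. Python 3.11.15, numpy 2.4.6, scipy 1.17.1 and matplotlib 3.10.9 were used.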

Additional observations from a re-analysis of the deposited data

How the results depend on the processing

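Alternatives were a 100 bp overlap, a −log10 p of at least 10, equal numbers of the strongest intervals in each list, other minimum numbers of lines, part borders moved by 2 kb, and fold in place of pileup. Of 159 values 114 stayed within their limits, 37 moved and 8 were reversed. In the 8 reversed values the sign changed, and the Poisson interval of the pileup value did not span both signs. Further changes of sign on the fold scale, given at the end of this section, were counted among the values that stayed or moved. A 100 bp overlap changed none of the 10 values it was tried on. Moved borders were tried only on the number of lines with a peak in each of the 3 enhancer stretches, which stayed at 6. Whether other regions, such as those in the D-J-C, TRBV30 and TRD parts, would change part with moved borders was not tested. The longest distance between neighbouring peaks and the weighted genome shares were added after seeing the data. No paired analysis was possible because each line has 1 library.

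With a −log10 p of at least 10, TRB kept 18 regions and TRA/TRD 8. Intervals in TRB fell to 9 in TALL-1, 6 in KOPT-K1 and HBP-ALL, 5 in MOLT-4 and 4 in DND-41. In TRA/TRD they fell to 3 in KOPT-K1 and DND-41, 2 in HBP-ALL and 1 in CCRF-CEM, and in TRG to 3 in KOPT-K1. Counts and spans that changed 1.5-fold or less are not listed in this section, such as TALL-1 in TRA/TRD, which fell from 7 to 5. The CCRF-CEM share of missed regions was 45.5%, and its TRB run had 4 regions; runs were 1 in HBP-ALL and KOPT-K1 and 2 in MOLT-4. The longest TRA/TRD span became 945 kb in CCRF-CEM and HBP-ALL and 485 kb in DND-41.

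With equal numbers, TRA/TRD kept 10 regions, with 1 interval in CCRF-CEM and 2 in HBP-ALL, whose spans became 945 kb. HBP-ALL kept 6 intervals in TRB and had a run of 4 there. Runs counted over regions with a peak in at least 1 other line were 4 in MOLT-4, 5 in TALL-1, KOPT-K1 and HBP-ALL, 7 in DND-41 and 27 in CCRF-CEM, and with at least 3 other lines 1 in DND-41.

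On the fold scale the reversed log2 values, below 0 in place of above, were −0.57 for KOPT-K1 at TRG and −0.37 for HBP-ALL at TRA. At TRB they were −0.94 for HBP-ALL, −0.73 for MOLT-4, −0.64 for DND-41, −0.28 for KOPT-K1 and TALL-1 and −0.11 for CCRF-CEM. At TRA, DND-41 moved to −0.03, MOLT-4 to −0.11 and TALL-1 to 0.09. The sign changed too in those of DND-41 and MOLT-4, and in HBP-ALL (−0.21) and MOLT-4 (0.22) at TRG and CCRF-CEM (−0.01) at TRA. The pileup intervals of these contained 0. The local backgrounds there are given with these peaks above, and their part in the change was not tested.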
